A study of Mus musculus with 8 samples.

Results

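The medial entorhinal cortex (MEC) is the cortical area that passes information to and from the hippocampus. Neurons of layer III project to hippocampal area CA1, whereas neurons of the deep layers (V and VI) receive hippocampal output and carry it to other parts of the brain. Properties of the MEC change along its dorsoventral axis, most famously the spatial scale of grid cells. The 7 genes described here are genes that the study placed in a single layer by in situ hybridization of other brains and that were chosen by their difference between dorsal and ventral MEC in the RNA-Seq libraries described below. They are 7 of the 38553 genes in the deposited table, with 3 from layer III (Mybpc1, Fermt1 and 9930013L23Rik) and 4 from the deep layers (Arhgap25, Dpysl5, Glra2 and Lmo3). All 7 were among the 13674 genes that could be tested. Because the dorsoventral difference in these same libraries chose them, that difference is given below as values, with no test.

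The mice were 13 males of the strain C57Bl/6JolaHsd, 8 weeks old, with no treatment or genetic change named. A sagittal slice of 400 µm was cut from the right MEC of each brain, and dorsal and ventral pieces were dissected from it and pooled over 3 or 4 mice in each of 4 groups. This gave 4 dorsal and 4 ventral libraries of amplified cDNA, in which a value stands for a pool of animals and for all layers and cell types of the piece. The labels do not tie a library to one of these groups, so dorsal and ventral libraries were not paired.

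Expression is given in FPKM (fragments scaled for the exon length of the gene and for the number mapped). The headers of 4 of the 8 FPKM columns carry the letter of the other region. Columns D1, V1, D2 and V2 have a mean equal, within 0.1%, to the mean listed for dorsal MEC in 38546 of 38553 genes, and columns D3, V3, D4 and V4 have the mean listed for ventral MEC in 38544 genes. They are called dorsal libraries 1 to 4 and ventral libraries 1 to 4, in that order. The values, not the labels, gave this assignment, so the 7 genes are also given below for the 4 libraries on which header and assignment coincide, and by header letter. All dorsal libraries carry header number 1 or 2 and all ventral ones 3 or 4. Assigned region and header number thus cannot be told apart, also not in those 4 libraries (D1 and D2 against V3 and V4).

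Slc17a7, the vesicular glutamate transporter of cortical projection neurons, was at 107 FPKM in dorsal and 105 FPKM in ventral MEC, and none of 4 glutamatergic and 3 GABAergic markers was called as different. The layer of a gene cannot be checked in pieces that hold all layers. Other markers differed between the regions. All 7 oligodendrocyte markers were higher dorsally (limma, defined below), with a summed level of 832 to 1099 FPKM in dorsal and 459 to 602 FPKM in ventral libraries. Of 4 tested leptomeningeal markers, 2 were higher ventrally, with a summed level of the 5 listed markers of 65.2 to 71.2 FPKM in dorsal and 107 to 121 FPKM in ventral libraries. Summed levels of astrocyte markers were 154 to 164 FPKM dorsally and 171 to 185 FPKM ventrally, and those of microglial markers 36.7 to 38.6 FPKM and 39.9 to 44.2 FPKM, with no marker of either list called. None of these markers was at 0 in all libraries. Their part in the results below was not tested. In pooled tissue, fewer cells of a type and less RNA per cell cannot be told apart.

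The layer III genes encode proteins with well-known roles outside the cortex. Mybpc1 encodes slow-type myosin-binding protein C, a component of the sarcomere of slow skeletal muscle. Fermt1 encodes kindlin-1, which binds the tails of integrin β subunits and activates integrins in epithelia. 9930013L23Rik, named Cemip in RefSeq, encodes a protein needed for the breakdown of hyaluronan, a large sugar polymer of the extracellular matrix. Among the deep-layer genes, Arhgap25 encodes a GTPase-activating protein for Rac, a switch of the actin cytoskeleton, and Dpysl5 encodes collapsin response mediator protein 5, which acts in axon and dendrite growth. Glra2 encodes the α2 subunit of the glycine receptor, a chloride channel. Lmo3 encodes a LIM-only protein, which bridges transcription factors without binding DNA itself.

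Upstream sequence is shown for 5 of the genes, because they hold a searched motif in the 100 bases before the start site. They are the 100 bases before the RefSeq start site, 5′ to 3′ on the strand of the gene, from the RefSeq promoter windows of build GRCm38.p6, on the minus strand except for Dpysl5 (plus). Capitals mark every match, on either strand, to the TATA box (TATAAA), the CCAAT box (CCAAT), the GC box (GGGCGG), the E-box CAGCTG and the cAMP response element (TGACGTCA). The windows are at chr10:88605153-88605252 (Mybpc1), chr2:132946037-132946136 (Fermt1), chr7:84086506-84086605 (9930013L23Rik), chrX:165327394-165327493 (Glra2) and chr5:30711464-30711563 (Dpysl5). Position -1 is the base just before the start site.
Mybpc1: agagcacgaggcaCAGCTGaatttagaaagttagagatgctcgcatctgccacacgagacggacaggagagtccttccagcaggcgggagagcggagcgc
Fermt1: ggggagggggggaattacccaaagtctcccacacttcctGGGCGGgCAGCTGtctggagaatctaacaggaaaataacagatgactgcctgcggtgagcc
9930013L23Rik: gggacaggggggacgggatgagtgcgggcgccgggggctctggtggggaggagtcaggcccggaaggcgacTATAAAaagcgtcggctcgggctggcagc
Glra2: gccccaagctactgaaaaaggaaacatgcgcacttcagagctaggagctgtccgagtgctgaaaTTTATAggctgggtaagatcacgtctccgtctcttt
Dpysl5: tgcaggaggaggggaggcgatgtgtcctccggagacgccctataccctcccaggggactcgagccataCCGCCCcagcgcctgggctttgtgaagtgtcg

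Mybpc1 and Fermt1, both higher in dorsal libraries, each held an E-box CAGCTG, beginning at position -87 and -54 from the start site, and in Fermt1 a GC box lay just before it. The other window with CAGCTG was that of the inner start site of Arhgap25, a gene higher in ventral libraries, at position -116, and 9930013L23Rik, higher in dorsal libraries, had none. 9930013L23Rik held TATAAA beginning at position -29 and Glra2 its reverse complement at position -36, although one gene was higher dorsally and the other ventrally. Dpysl5 held the reverse complement of the GC box at position -32. Positions hold for the RefSeq start sites only. Those of Fermt1 (chr2:132946036) and 9930013L23Rik (chr7:84086505) lie upstream of the genes in the GENCODE M21 annotation. On the minus strand these begin at 132945906 and 84086502. RefSeq gave 8 windows of 300 bases (250 before and 50 after a start site) for the 7 genes, with 2 start sites for Arhgap25. Of the 8 windows, 2 held TATAAA, against 13.6% of all 32851 mouse promoter windows, 3 held CAGCTG against 16.3%, 4 held GGGCGG against 35.7% and 2 held CCAAT against 37.4%. None held TGACGTCA, which 1.79% of all windows hold. The GC content of the windows ran from 43.7% for the outer start site of Arhgap25 to 73.7% for 9930013L23Rik, beside a median of 52.7% over all windows. The GC content of the 9930013L23Rik window exceeded that of 94.9% of all windows, and it held 33 CpG dinucleotides, against 5 in that of Fermt1. These matches describe letters only, and no binding was measured.

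The 7 genes lie on 6 chromosomes. In GENCODE M21 (GRCm38), Mybpc1 spans chr10:88518279-88605152, Fermt1 chr2:132904389-132945906, 9930013L23Rik chr7:83932857-84086502, Arhgap25 chr6:87458545-87533259, Dpysl5 chr5:30711564-30799375, Glra2 chrX:165129017-165327393 and Lmo3 chr6:138362918-138581968. All are protein-coding, and Dpysl5 alone among them lies on the plus strand. FPKM of a gene sums over its transcripts, of which the annotation lists 1 for Glra2 and 8 for Lmo3. Exons of Mybpc1 share 252 bases with Gm48752, a locus on the opposite strand. No other gene of the 7 shares an exon base with another annotated gene, although 3 genes annotated as antisense overlap Lmo3 outside its exons.

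Mybpc1 had by far the largest ratio of the 7. It was measured at 9.02, 11.1, 6.69 and 7.04 FPKM in dorsal libraries 1 to 4. It was at 0.601, 0.870, 0.520 and 0.896 FPKM in ventral libraries 1 to 4. The lowest dorsal library was 7.46 times the highest ventral library. The means were 8.45 ± 2.02 FPKM (SD, n = 4) dorsally and 0.722 ± 0.190 FPKM (SD, n = 4) ventrally, an 11.7-fold difference (log2 ventral over dorsal -3.55), and 99.9% of tested genes had a smaller absolute log2 ratio. Dorsal Mybpc1 stood above 51.8% of tested genes in level, and ventral Mybpc1 above 0.263%. Tested genes had to average at least 1 FPKM over all libraries, a limit that Mybpc1 met only through its dorsal libraries. Its low ventral rank follows from that limit, and nothing is read from it. Summed levels of 4 skeletal muscle markers (Acta1, Ckm, Myh1 and Tnnt3) were 0.820 to 1.58 FPKM in dorsal and 0.764 to 1.39 FPKM in ventral libraries, so these ranges overlapped.

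Fermt1 and 9930013L23Rik were also higher dorsally, by smaller ratios. Fermt1 was at 13.1, 12.01, 12.3 and 14.1 FPKM in dorsal libraries 1 to 4 and at 6.93, 8.25, 8.89 and 8.21 FPKM in ventral libraries 1 to 4. Its means were 12.9 ± 0.952 FPKM (SD, n = 4) and 8.07 ± 0.822 FPKM (SD, n = 4), a ratio of 1.60 (log2 ventral over dorsal -0.68). 9930013L23Rik was at 11.9, 13.1, 11.2 and 11.9 FPKM dorsally and at 6.95, 10.1, 8.00 and 8.04 FPKM ventrally. The ventral libraries varied more than the dorsal ones, and ventral library 2 came within 1.10 times of the lowest dorsal library. The means of 9930013L23Rik were 12.04 ± 0.778 FPKM (SD, n = 4) and 8.29 ± 1.34 FPKM (SD, n = 4), a ratio of 1.45 (log2 -0.54).

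The 4 deep-layer genes were higher ventrally, 3 of them without overlap. Arhgap25 was at 2.41, 2.37, 2.79 and 2.31 FPKM in dorsal libraries 1 to 4 and at 3.38, 3.95, 4.93 and 4.49 FPKM in ventral libraries 1 to 4. Its means were 2.47 ± 0.216 FPKM (SD, n = 4) and 4.19 ± 0.669 FPKM (SD, n = 4), so it was 69.6% higher ventrally (log2 0.76). Dpysl5 was at 7.80, 8.46, 9.28 and 10.5 FPKM dorsally and at 14.6, 13.1, 17.2 and 16.1 FPKM ventrally. Its ratio was nearly the same as that of Arhgap25, with means of 9.00 ± 1.15 FPKM (SD, n = 4) and 15.2 ± 1.79 FPKM (SD, n = 4), 69.3% higher ventrally (log2 0.76).

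Glra2 was at 2.45, 2.27, 2.43 and 2.24 FPKM dorsally and at 3.52, 3.73, 3.42 and 4.31 FPKM ventrally. The dorsal libraries were the most even of any gene among the 7, with a coefficient of variation of 4.60%, and the lowest ventral library was 1.39 times the highest dorsal library. The Glra2 means were 2.35 ± 0.108 FPKM (SD, n = 4) and 3.75 ± 0.400 FPKM (SD, n = 4), 59.5% higher ventrally (log2 0.67).

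Lmo3 was the most abundant of the 7 and the one whose regions overlapped. It was at 59.3, 37.5, 55.1 and 63.2 FPKM in dorsal libraries 1 to 4 and at 67.6, 71.2, 61.4 and 88.6 FPKM in ventral libraries 1 to 4. Dorsal library 4 exceeded ventral library 3, and dorsal library 2 was well below the other three. The means were 53.8 ± 11.4 FPKM (SD, n = 4) and 72.2 ± 11.7 FPKM (SD, n = 4), 34.3% higher ventrally (log2 0.43), the smallest difference among the 7. Without dorsal library 2 the log2 ratio was 0.29, and without ventral library 4 it was 0.31. Dorsal and ventral libraries did not overlap for 6 of the 7 genes, beside 11.1% of all tested genes in either direction, and since this difference chose the genes nothing is read from that count.

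**Figure D1:**
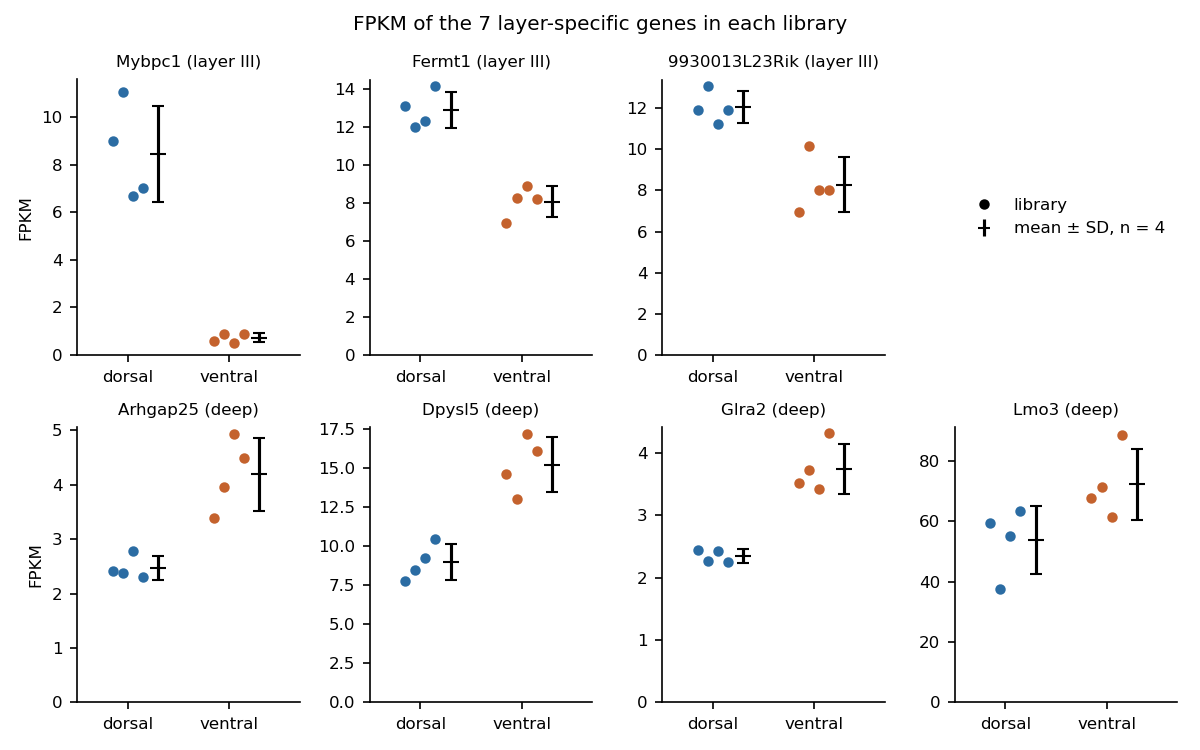
FPKM of the 7 genes by region, with each point a library (4 dorsal, blue, and 4 ventral, orange) and the bar beside it the mean ± SD (n = 4); the vertical axes start at 0. Mybpc1 is at 6.69 FPKM or more dorsally and 0.896 FPKM or less ventrally, while Lmo3 is the panel in which the 2 regions overlap.

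The order of mean FPKM differed between the regions. Because the genes were chosen by their dorsoventral difference, a shift follows from that choice and nothing is read from it. FPKM is scaled for exon length, but amplification can distort levels, so comparisons between genes are approximate. In dorsal MEC the order of mean FPKM was Lmo3, Fermt1, 9930013L23Rik, Dpysl5, Mybpc1, Arhgap25 and Glra2. The ranges over libraries overlapped between Fermt1 and 9930013L23Rik, between Dpysl5 and Mybpc1, and between Arhgap25 and Glra2. In ventral MEC the order was Lmo3, Dpysl5, 9930013L23Rik, Fermt1, Arhgap25, Glra2 and Mybpc1, where the ranges of 9930013L23Rik and Fermt1 overlapped, as did those of Arhgap25 and Glra2. Dpysl5 thus exceeded both Fermt1 and 9930013L23Rik in all 4 ventral libraries, and was below 9930013L23Rik in all 4 dorsal ones. Lmo3 exceeded 93.8% of tested genes by its mean over the 8 libraries, and Glra2 exceeded 23.6%.

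Within a region the genes did not vary as a block. Dorsal library 2 had the highest Mybpc1 and 9930013L23Rik of the 4 dorsal libraries and the lowest Lmo3 and Fermt1. Ventral library 4 had the highest Glra2, Lmo3 and Mybpc1 of its region, whereas ventral library 3 had the highest Fermt1, Arhgap25 and Dpysl5 and the lowest Mybpc1, Glra2 and Lmo3. The SD of log2 FPKM within regions was 0.36 for Mybpc1 and 0.29 for Lmo3, and between 0.12 and 0.19 for the other five.

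The direction of each ratio was kept with any library left out. Where the regions did not overlap it could not change, and this difference chose the genes, so nothing is read from the kept direction. With any one library left out, the log2 ratio of Mybpc1 stayed between -3.67 and -3.39, that of Fermt1 between -0.73 and -0.61, that of 9930013L23Rik between -0.65 and -0.46, that of Arhgap25 between 0.67 and 0.85, that of Dpysl5 between 0.70 and 0.84, that of Glra2 between 0.60 and 0.71 and that of Lmo3 between 0.29 and 0.51. In the 4 libraries on which header and assignment coincide, the log2 ratio was -3.15 for Mybpc1, -0.63 for Fermt1, -0.35 for 9930013L23Rik, 0.70 for Arhgap25, 0.77 for Dpysl5, 0.72 for Glra2 and 0.48 for Lmo3. With regions taken from the header letter it was 0.24 for Mybpc1, 0.05 for Fermt1, 0.18 for 9930013L23Rik, -0.04 for Arhgap25, -0.02 for Dpysl5, 0.09 for Glra2 and 0.10 for Lmo3, so the differences above depend on the assignment of the libraries.

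**Figure D2:**
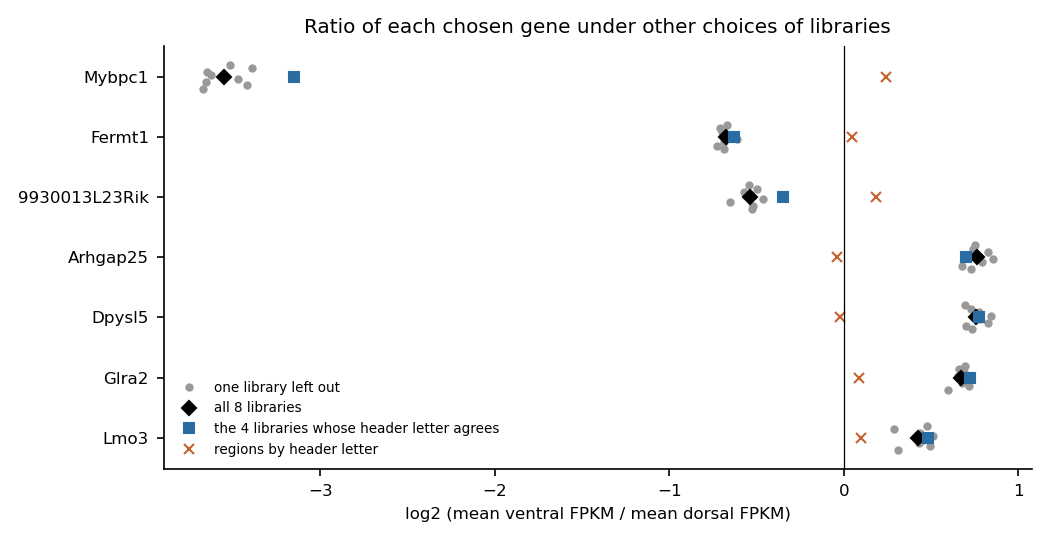
Log2 of mean ventral over mean dorsal FPKM of each of the 7 genes, horizontally, with all 8 libraries (black diamond), with one library left out (grey), with the 4 libraries whose header letter coincides with the assignment (blue square) and with regions by header letter (orange cross). The first 3 kinds of point lie together on one side of 0 for each gene, and the crosses lie between -0.04 and 0.24.

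The other genes on the layer III and deep-layer lists were compared in the same libraries. These are the lists without the 7 genes, which were taken out by their dorsoventral difference, so the counts and medians below are not shares of a layer. All tested genes were compared by limma on log2(FPKM + 1), and genes whose Benjamini-Hochberg adjusted p was under 0.05 and whose mean FPKM values differed by at least 20% were called (log2 ratio beyond 0.26). This called 2.15% of the 13674 tested genes as higher dorsally (294 genes) and 1.45% as higher ventrally (198 genes). After scaling all libraries to one total FPKM the split was 195 against 201 genes. Of the 31 genes on the layer III list, 28 were found in the table, and 24 other than Mybpc1, Fermt1 and 9930013L23Rik were tested. Among these 24, 2 were higher dorsally (Cacna1i and Rgs4), 3 were higher ventrally (Sec14l3, Glra3 and Rcn1) and 19 were not called. Their median log2 ratio was -0.06, beside -0.01 for all tested genes, and 14 of the 24 ratios were below 0. This median was near 0 and not stable. With a library left out in turn it ran from -0.068 (without dorsal library 3) to 0.0060 (without dorsal library 1). It was -0.0065 after scaling to one total FPKM and -0.041 after quantile normalization.

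Rgs4 and Cacna1i both act in neuronal signalling and shared the direction of the 3 chosen layer III genes. Rgs4, a regulator that shortens G protein signals, was at 94.8 ± 4.93 FPKM dorsally and 73.6 ± 7.00 FPKM ventrally (SD, n = 4 each; log2 -0.37, limma adjusted p = 0.0286). Cacna1i, a T-type calcium channel, was at 6.96 ± 0.407 FPKM and 5.23 ± 0.573 FPKM (log2 -0.41, limma adjusted p = 0.0479). Neither call was firm. Cacna1i lost it without any single one of the 8 libraries (limma adjusted p from 0.0595 to 0.141), and Rgs4 lost it without dorsal library 1, 2, 3 or 4 or ventral library 3 or 4 (0.0526 to 0.0842). Both lost it after scaling to one total FPKM, Rgs4 after quantile normalization (0.0654) and Cacna1i with no filter on FPKM (0.0523) or a minimum of 5 (0.0526).

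Sec14l3, a member of a family of lipid-binding proteins, had the largest ratio among the other layer III genes and ran opposite to Mybpc1. It was at 6.40, 4.62, 4.88 and 4.21 FPKM in dorsal libraries 1 to 4 and at 21.3, 19.5, 15.7 and 18.6 FPKM in ventral libraries 1 to 4, without overlap (log2 1.90, limma adjusted p = 0.000176). Rcn1, a calcium-binding protein of the endoplasmic reticulum, was at 7.08 ± 0.544 FPKM dorsally and 10.2 ± 1.05 FPKM ventrally (SD, n = 4 each; log2 0.53, limma adjusted p = 0.0147). Both calls were made with each library left out in turn.

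Glra3, the α3 subunit of the glycine receptor and a paralog of the deep-layer gene Glra2, is on the layer III list and was higher ventrally. It was at 2.71, 2.56, 2.06 and 2.34 FPKM dorsally and at 4.15, 3.65, 3.21 and 3.62 FPKM ventrally, without overlap (log2 0.60, limma adjusted p = 0.0323). The call was lost without dorsal library 2, 3 or 4 or ventral library 1, 2 or 4 (limma adjusted p from 0.0606 to 0.105). The 3 most abundant layer III genes that were not called had log2 ratios of -0.01 for Fzd3, a Wnt receptor, -0.08 for Trps1, a transcription factor, and 0.16 for Cd44, a receptor for hyaluronan (limma adjusted p = 0.980, 0.692 and 0.440).

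Of the 55 genes on the deep-layer list, 51 were found, and 43 other than Arhgap25, Dpysl5, Glra2 and Lmo3 were tested. Here 3 were higher ventrally (Nts, Grp and Oprm1), none was called as higher dorsally by limma and 40 were not called. At an unadjusted limma p under 0.05, 16 of the 43 were higher ventrally and 0 higher dorsally. In either direction these are 16 of 43, beside 2191 of the 13674 tested genes, a number not split by direction here. The ventral and dorsal counts among the 43 were 10 and 1 without dorsal library 2 and 19 and 2 without dorsal library 1. They were 25 and 0 after scaling to one total FPKM. The median log2 ratio of the 43 was 0.22 beside -0.01 for all tested genes, and 35 of 43 ratios were above 0, against 48.8% of all tested genes. The median of the 43 was 0.26 after scaling to one total FPKM, which raised the median of all tested genes to 0.045, and 0.23 after quantile normalization, with 0.0083 for all tested genes. With a library left out in turn it ran from 0.16 (without dorsal library 2) to 0.28 (without dorsal library 4). With regions by header letter it was 0.066, and 28 of the 43 ratios were above 0.

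Nts, which encodes the neuropeptide neurotensin, was at 0.547, 0.701, 1.23 and 0.602 FPKM in dorsal libraries 1 to 4 and at 3.37, 4.00, 4.30 and 4.89 FPKM in ventral libraries 1 to 4 (log2 2.43, limma adjusted p = 0.000410). Grp, which encodes gastrin-releasing peptide, was at 0.787, 0.576, 0.799 and 0.675 FPKM dorsally and at 2.61, 2.22, 2.16 and 3.75 FPKM ventrally (log2 1.92, limma adjusted p = 0.00235). Neither gene overlapped between regions, and both were called with each library left out in turn. Their dorsal means were under 1 FPKM (0.770 for Nts and 0.709 for Grp). Both thus met the limit of a mean of 1 FPKM over all libraries only through the ventral libraries, where they are high. Oprm1, the μ-opioid receptor, was at 3.49 ± 0.612 FPKM dorsally and 5.59 ± 0.674 FPKM ventrally (SD, n = 4 each; log2 0.68, limma adjusted p = 0.0277). Its call was lost without dorsal library 2 or 3 or ventral library 2, 3 or 4 (limma adjusted p from 0.0520 to 0.0702). The 3 most abundant deep-layer genes that were not called had log2 ratios of -0.05 for Cdh11, a cadherin, 0.14 for Nfia, a transcription factor, and 0.20 for Fam5c (limma adjusted p = 0.876, 0.491 and 0.335).

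**Figure D3:**
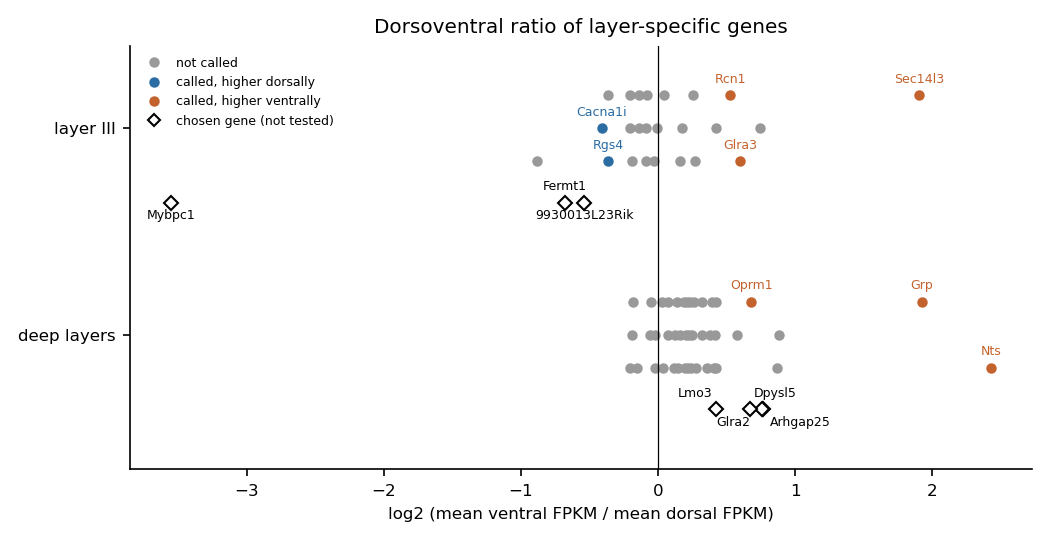
Log2 of mean ventral over mean dorsal FPKM of layer-specific genes, horizontally, with the 24 other layer III genes and the 43 other deep-layer genes as points (grey not called, blue called as higher dorsally, orange called as higher ventrally; vertical offsets only separate points) and the 7 chosen genes as open diamonds below. The layer III points lie on both sides of 0, and 35 of 43 deep-layer points lie above 0.

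Relatives and partners of the 7 genes were compared in the same fit. Of 51 such genes 33 were tested. Higher dorsally were 2 (Hapln4 and Slc6a9), higher ventrally was 1 (Dpysl3), and 30 were not called, beside the 2.15% and 1.45% of all tested genes. Their median log2 ratio was -0.06, and between -0.043 and -0.0048 with a library left out in turn.

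None of the 7 sarcomere genes set beside Mybpc1 could be tested. Its paralogs Mybpc2 and Mybpc3, the fast skeletal and cardiac forms, were at 0.0430 and 0.00438 FPKM dorsally and 0.117 and 0.00756 FPKM ventrally. Ttn, which encodes the giant sarcomere protein titin, had the highest level of the 7, at 0.366 FPKM dorsally and 0.529 FPKM ventrally.

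For Fermt1, all 10 tested partners were not called. Fermt2, the paralog kindlin-2, was more abundant than Fermt1 and nearly even, at 28.8 ± 1.88 FPKM dorsally and 27.5 ± 1.85 FPKM ventrally (SD, n = 4 each; log2 -0.07, limma adjusted p = 0.722). Fermt3, the blood-cell form, was at 0.408 and 0.435 FPKM and was not tested. The integrin subunit Itgav had the ratio furthest from 0 of the 10 (log2 -0.30, limma adjusted p = 0.0885).

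Among hyaluronan genes, set beside 9930013L23Rik, 1 of 7 tested was called. Hapln4, which links hyaluronan to proteoglycans in perineuronal nets, was at 18.3, 19.2, 21.0 and 21.2 FPKM in dorsal libraries 1 to 4 and at 12.3, 12.2, 15.8 and 14.6 FPKM in ventral libraries 1 to 4 (log2 -0.53, limma adjusted p = 0.0143), a ratio close to the -0.54 of 9930013L23Rik. The call was lost without ventral library 1 (limma adjusted p = 0.0507). Tmem2, the paralog of 9930013L23Rik, leaned to the other side at 2.37 ± 0.241 FPKM dorsally and 2.82 ± 0.0592 FPKM ventrally (SD, n = 4 each), with a log2 ratio of 0.25 that did not pass the test (limma adjusted p = 0.322). The hyaluronan synthases Has1 and Has2 were under 1 FPKM in every library, and Has3 was at 2.19 ± 0.940 FPKM and 2.47 ± 1.51 FPKM (SD, n = 4 each).

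In the family of Dpysl5, the collapsin response mediator proteins, 1 of 4 tested paralogs was called. Dpysl3 was at 15.3, 14.1, 15.7 and 14.9 FPKM dorsally and at 19.9, 17.4, 18.7 and 19.2 FPKM ventrally, without overlap (log2 0.32, limma adjusted p = 0.0292). The call was lost without any one of dorsal libraries 1 to 4 or ventral libraries 1, 3 and 4 (limma adjusted p from 0.0547 to 0.104). The other three were not called, with log2 ratios of 0.11 for Crmp1, -0.09 for Dpysl2, the most abundant of the family at 119 FPKM over all libraries, and 0.05 for Dpysl4 (limma adjusted p = 0.464, 0.610 and 0.849).

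Of the glycine receptor genes, Glra1 and Glra4 were at most 0.0765 and 0.301 FPKM in any library. Glrb, the β subunit that anchors the receptor to its scaffold, was at 74.0 ± 6.07 FPKM dorsally and 63.3 ± 5.98 FPKM ventrally (SD, n = 4 each; log2 -0.22, limma adjusted p = 0.216), and the scaffold gene Gphn was not called either (log2 -0.12, limma adjusted p = 0.469). Slc6a9, the glycine transporter GlyT1 that clears glycine from the extracellular space, went against Glra2 and Glra3. It was at 12.03, 12.2, 14.7 and 13.2 FPKM dorsally and at 8.18, 8.36, 10.1 and 9.68 FPKM ventrally, without overlap (log2 -0.52, limma adjusted p = 0.0163). Its call was lost without ventral library 1 (limma adjusted p = 0.0571). Slc6a5, the neuronal transporter GlyT2, was at 0.0107 FPKM dorsally and 0.0310 FPKM ventrally. Oligodendrocyte markers moved in the direction of Slc6a9 and Hapln4, as given above, and so in that of the other dorsally higher genes, Mybpc1, Fermt1 and 9930013L23Rik included. Leptomeningeal markers moved in the direction of the ventrally higher genes. The part of these cell types in the differences was not tested.

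No relative or partner of Arhgap25 or Lmo3 was called. Arhgap24, a related Rac GTPase-activating protein, had a log2 ratio of -0.19 (limma adjusted p = 0.682), Arhgap22, of the same family, averaged under 1 FPKM and was not tested (1.08 FPKM dorsally and 0.904 FPKM ventrally), and Rac1, the most abundant of all partners at 213 FPKM over all libraries, had 0.10 (limma adjusted p = 0.715). Among the LIM-only paralogs, Lmo4 was more abundant than Lmo3 at 101 ± 4.26 FPKM dorsally and 95.6 ± 11.6 FPKM ventrally (SD, n = 4 each; log2 -0.08, limma adjusted p = 0.696), and Lmo2 had a log2 ratio of -0.06 (limma adjusted p = 0.886). Lmo1 was not tested, at 0.776 FPKM dorsally and 0.902 FPKM ventrally. Ldb2, a LIM-domain-binding partner, and Lhx2, a LIM-homeodomain factor, did not overlap between regions and were higher ventrally in value, with log2 ratios of 0.32 and 0.33, but did not pass the test (limma adjusted p = 0.120 and 0.0861).

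**Figure D4:**
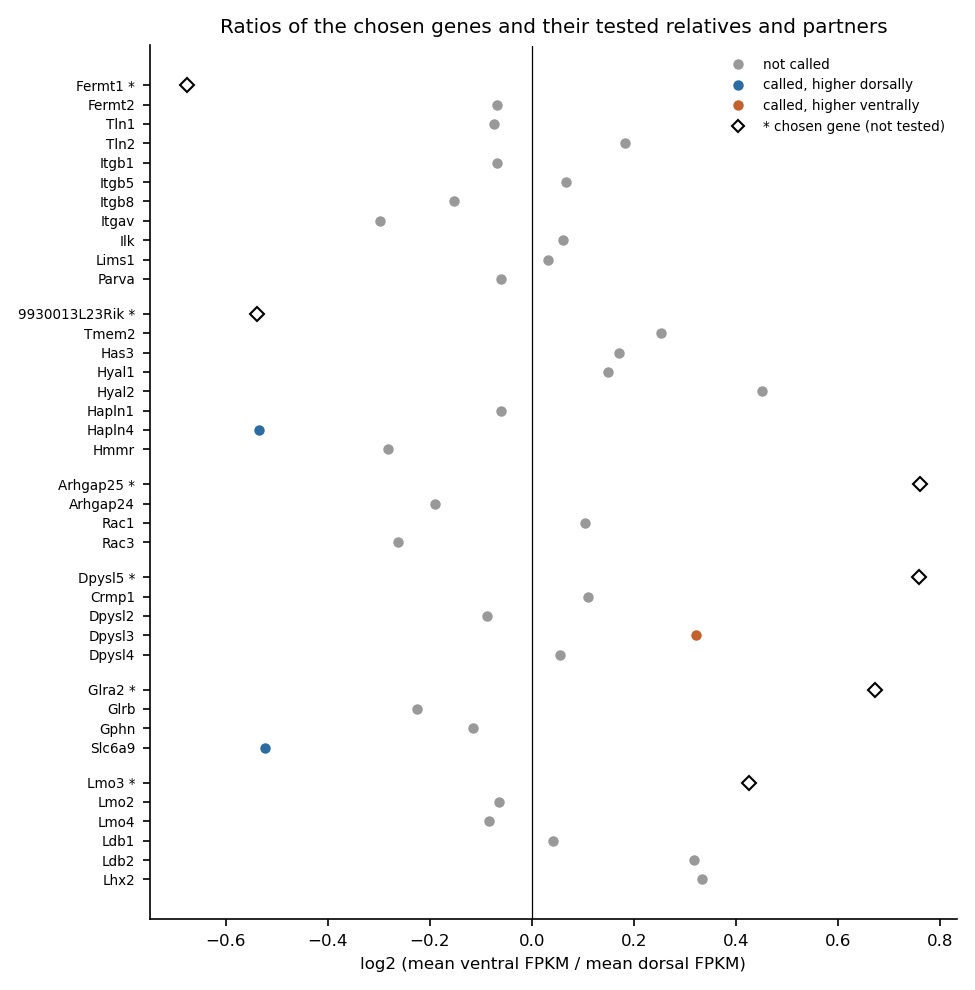
Log2 of mean ventral over mean dorsal FPKM, horizontally, of 6 of the chosen genes (open diamonds) and, under each, its tested relatives and partners shown here (grey not called, blue called as higher dorsally, orange called as higher ventrally). Each diamond lies further from 0 than the points under it, with Hapln4 at -0.53 beside 9930013L23Rik at -0.54 the closest pair. The diamonds were chosen by their dorsoventral difference and the points were not, so nothing is read from these distances.

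The genes whose log2(FPKM + 1) followed each of the 7 most closely over the 8 libraries are given as a description, since 8 points that fall into 2 regions make any gene with a regional difference resemble another. For Mybpc1 they were Col11a1, Rerg and Vwc2l (Pearson r = 0.992, 0.992 and 0.991). For Fermt1 they were Elovl7, Cadm2 and Rapgef4 (r = 0.989, 0.985 and 0.983). For 9930013L23Rik they were Rasal2, Gpc5 and Prkd3 (r = 0.993, 0.992 and 0.979). For Arhgap25 they were 5930403N24Rik, Rab27a and Mrpl44 (r = 0.984, 0.979 and 0.966). For Dpysl5 they were Mrgpre, Fhl1 and Bbs1 (r = 0.987, 0.983 and 0.979). Glra2 was followed most closely by Grp, another deep-layer gene, and then by Mtss1 and Ppm1f (r = 0.989, 0.987 and 0.970). Lmo3, whose regions overlap, had Casd1, Slc35f1 and Shisa9 (r = 0.966, 0.959 and 0.954).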

How the data were processed

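RNA-Seq of dorsal and ventral MEC gave 8 libraries. Per the labels, cDNA was amplified from 120 ng of RNA (RNA integrity numbers 7.1 to 8.5) with the Ovation RNA-Seq System V2. The submitters' processing notes name CASAVA 1.8, TopHat2 2.0.8 and Cuffdiff. The FPKM values deposited by the authors are those of Cuffdiff 2, with the fragments of a gene summed over its transcripts, divided by exon length and scaled between libraries. The authors' comparison table also holds fold changes, p-values and q-values, which were not used. A table of fragment numbers per condition and replicate number matched no single sample, so its 4 per-sample columns were left out, no count test was run, and the depth behind each FPKM value is not given here. Amplification can distort levels and is shared by all libraries.

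Genes marked OK by the authors whose FPKM averaged 1 or more were compared by limma 3.58.1 (R 4.3.3, mean-variance trend, two-sided) on log2(FPKM + 1). Calls needed an adjusted p (Benjamini-Hochberg) under 0.05 together with a 20% difference in mean FPKM. Ratios in the text are log2 of mean ventral over mean dorsal FPKM, whereas the model works on log2(FPKM + 1), which understates the change of low genes. Each library is a pool of 3 or 4 mice. The code of the fit was also run on simulated data with independent normal values for each gene. Those data hold no shift shared by a library and no wrong region, so nothing is read from them here. The alternatives were an added constant of 0.1, a minimum FPKM of 5 or none, libraries scaled to a common total, quantile normalization, the limit set on the limma fold change, sample quality weights, each library left out, regions by header letter, and the 4 libraries on which header and region coincide. Layer lists of the study were matched by symbol, then by Entrez identifier through RefSeq.

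The 7 genes, the lists and the tests were chosen with earlier results of these data known. Besides the 7 genes, those named are every called gene among the other layer-specific genes and the relatives and partners, the 3 most abundant uncalled genes of each list, every detected direct paralog, and the 3 genes most correlated with each of the 7. Of the genes taken by this rule, 1 is counted in its list but not reported here. Ldb2, Lhx2, Itgav, Gphn, Has3 and the untested genes were named after their values were seen. Marker lists not described above were endothelial, dentate gyrus, CA1, and striatum and amygdala. The 1 tested CA1 marker, Fibcd1, was higher ventrally, at 0.641 FPKM dorsally and 2.52 FPKM ventrally (log2 1.98, limma adjusted p = 0.00296). It met the limit on mean FPKM only through the ventral libraries. The other CA1 marker, Pou3f1, was not tested, at 0.829 FPKM dorsally and 0.562 FPKM ventrally. Whether the pieces held CA1 tissue was not tested. Striatum and amygdala had 1 gene higher dorsally, and the endothelial and dentate gyrus lists 0 calls. Tables and plots were made with Python 3.11.15, NumPy 2.4.6, pandas 2.3.3 and matplotlib 3.10.9.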

Additional observations from a re-analysis of the deposited data

How the results depend on the processing

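The direction of the 7 ratios held in the alternatives run except regions by header letter (a minimum FPKM of 5 left out Mybpc1, Arhgap25 and Glra2). Because this difference chose the 7 genes, nothing is read from the kept direction. By header letter, Mybpc1 (0.24), Fermt1 (0.047) and 9930013L23Rik (0.18) were above 0 and Arhgap25 (-0.042) and Dpysl5 (-0.023) below 0. Under those regions limma called 1 gene as higher dorsally and 0 as higher ventrally, against 294 and 198, with 721 genes at an unadjusted p under 0.05, and it called 0 genes of the layer III, deep-layer and relatives lists. With only the 4 libraries on which header and region coincide it called 0 genes in each direction and 0 of each list, with 1240 genes at an unadjusted p under 0.05. So few libraries make a call hard to reach, so this lack of calls is not read as a loss of the differences. In these 4 libraries the median log2 ratio was 0.23 for the other deep-layer genes (37 of 43 above 0) and -0.070 for the other layer III genes. Scaling to a common total FPKM gave 195 genes higher dorsally and 0 of the other layer III genes higher dorsally, against 2. No filter on FPKM left 1 of these 2. A minimum FPKM of 5 removed the 3 ventrally higher deep-layer genes from the test, leaving 0. The cause of the other losses was not tested.

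With one library left out, genes higher dorsally numbered 157 to 341 (157 without dorsal library 2, 163 without ventral library 1 and 189 without dorsal library 4) and genes higher ventrally 91 to 191 (91 without dorsal library 2, 91 without ventral library 1, 121 without ventral library 3 and 123 without dorsal library 3). Among other layer III genes the counts were 0 to 2 higher dorsally and 2 to 3 higher ventrally, among other deep-layer genes 0 and 2 to 3, and among relatives and partners 0 to 2 and 0 to 1. The remaining alternatives stayed within 1.5 times of each count.

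No paired analysis was possible because the columns name no group of mice and 4 of their 8 letters name the other region. Header numbers 1 and 2 fall on dorsal and 3 and 4 on ventral libraries, so they give no pairs of regions. Without fragment numbers, the part of counting error in the spread of low genes such as ventral Mybpc1 is unknown.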
